A study of Mus musculus with 8 samples.

Results

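The genes described here are those of the cell cycle and of mitosis, chosen by their symbols in a table of 812 genes whose expression was compared between WT and RhoA-deficient alveolar type 2 (AT2) cells. AT2 cells are the cells of the alveolar epithelium that make surfactant and divide to renew the alveolus. The WT group was *RhoA* fl/fl mice, which carry the floxed allele and no Cre, and the RhoA-deficient group was *Sftpc-cre;RhoA* fl/fl mice, both on the C57BL/6 background. In the second group Cre recombinase under the promoter of *Sftpc*, a surfactant gene, is meant to remove RhoA from AT2 cells. The paper also describes Sftpc in basal cells. It reports that RhoA was lost in AT2 cells, whereas basal cells and central airways kept it. The labels list 4 samples of each genotype as primary cells of a single passage, and all 8 samples received cockroach allergen (CRE) at 50 μg/mL for 16 hours, so no sample without allergen enters the comparison. The labels describe this as a treatment of the cells. The paper describes cells taken from mice with induced asthma and, in a figure caption, from mice treated with CRE. Whether both treatments applied to the same samples is not settled here. The age of the mice, and whether a sample came from 1 mouse or several, are not given in the sources used here. The authors deposited 1 average per genotype, in FPKM (fragments per kilobase of transcript and per fixed number of mapped fragments). Neither the spread between samples nor their sequencing depth can be read from these averages, so the differences below stand without replicate error, since the authors' own test columns were not used. The comparison asks which transcripts differ when AT2 cells that meet the allergen lack RhoA.

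The symbol pattern took the families of cyclins (*Ccna*, *Ccnb*, *Ccnd*, *Ccne*), cyclin-dependent kinases (*Cdk*) and their inhibitors (*Cdkn*), the *Cdc* and *Cdca* genes except those named after *Cdc42*, *Mcm*, *Rrm*, *Cenp*, *Ncap*, *Kif*, *Aurk*, *Plk*, *Bub1* and the histones, together with *Mki67*, *Top2a*, *Tpx2*, *Prc1*, *Ect2*, *Anln*, *Hmmr* and *Nusap*. It found 15 of the 812 genes. The GENCODE M21 annotation holds 253 genes that match the same pattern, of which 67 are protein-coding histone genes, and none of the histone genes is among the 15. The paper describes enrichment of mRNA with oligo(dT) beads. How well these beads capture histone transcripts was not examined, so this absence is no result about histone genes. All 812 genes carry the authors' mark of significance, so a gene's presence in the table was settled by the same comparison. The cell cycle genes outside the table were not analysed here. The paper's text reports a smaller number of differing genes for this comparison, and why the numbers differ was not examined. What the symbols did not settle are the direction, the size of the difference and the level of each gene.

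A cell passes from G1 through the replication of its DNA in S phase to G2 and mitosis. Cyclins activate the cyclin-dependent kinases that drive these steps, and inhibitors such as p21 hold them back. In mitosis the Aurora and Polo-like kinases, the kinetochore, the spindle motors and the checkpoint kinases arrange and separate the chromosomes, after which an actomyosin ring divides the cell. RhoA is the GTPase that builds this ring, and ECT2 is the exchange factor that activates RhoA at the cell equator. In the adult lung most AT2 cells are out of cycle, and they enter it after injury.

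All 8 genes of mitosis and cytokinesis among the 15 were lower in RhoA-deficient than in WT AT2 cells, while the CDK inhibitor *Cdkn1a* was higher. Of the 15 genes, 13 were lower and 2 were higher in the RhoA-deficient group. Among all 812 genes 44.8% were lower and 55.2% were higher. The median difference in log2(FPKM + 1), RhoA-deficient minus WT, was -0.91 over the 15 genes and 0.65 over all 812. The difference of *Cdkn1a* was 0.68, close to that median of all 812 genes. By this measure 6 of the 15 were at least 2-fold lower and none was at least 2-fold higher, against 28.4% and 23.6% of the 812 genes. The 1 added to each FPKM value understates the difference of low genes, and without it 10 of the 15, and 37.3% of the 812, were at least 2-fold lower. In log2(FPKM + 1), 13 of the 15 were at least 1.5-fold lower and 2 at least 1.5-fold higher, against 44.5% and 53.4% of the 812 genes. At least 3-fold lower was 1 of the 15, a share near the 7.27% of all genes. The ratios called fold below are of the FPKM values as deposited, and the differences are in log2(FPKM + 1).

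Of the 15 genes, 3 match the pattern but are known mainly for other tasks: *Cdk12*, a kinase of RNA polymerase II, *Kif9*, a kinesin of motile cilia, and *Kif21b*, a kinesin that regulates microtubule growth in neurons and lymphocytes. Of the other 12 genes, 11 were lower and only *Cdkn1a* was higher. The summed level of the 11 lower genes was 186.8 FPKM in WT and 81.9 FPKM in RhoA-deficient AT2 cells, a ratio of 0.44. The lowest ratio of RhoA-deficient to WT among the 11 was 0.26 and the highest was 0.61.

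**Figure D1:**
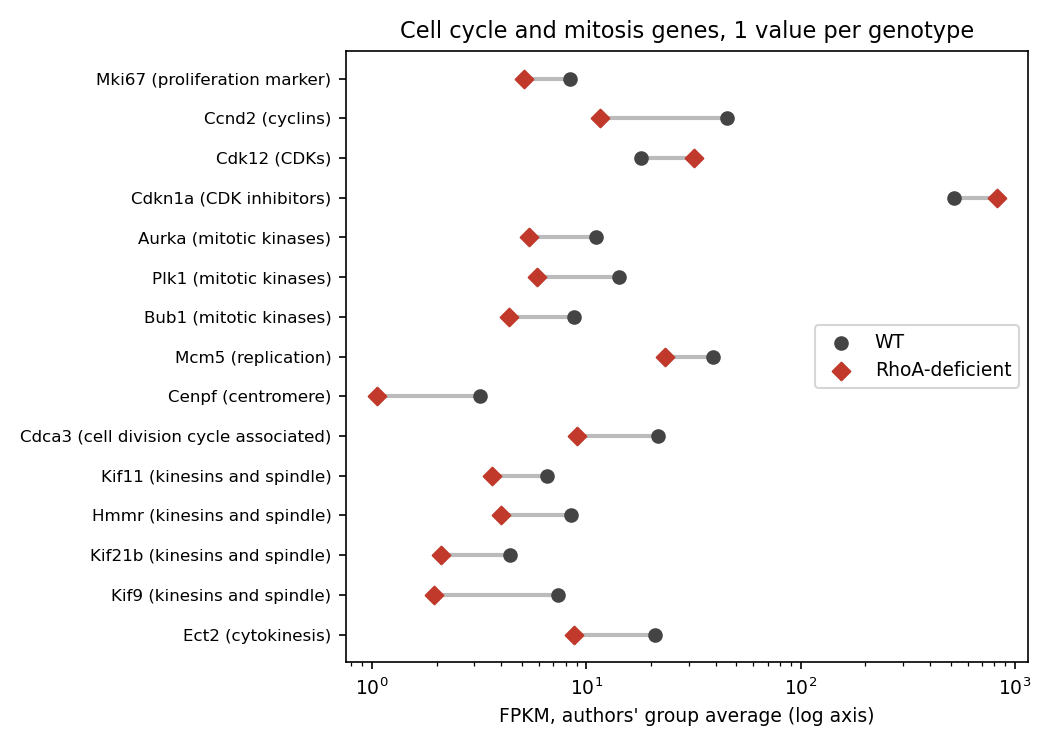
FPKM of the 15 cell cycle and mitosis genes on a log axis, 1 average per genotype as the authors deposited it, with circles for WT, diamonds for RhoA-deficient AT2 cells and a grey line joining both values of a gene. The diamond lies to the left of the circle for 13 genes and to the right for *Cdk12* and *Cdkn1a*, and no error is drawn because no value per sample was used.

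Promoters of the lower genes are shown, and were searched for 2 motifs that are textbook features of genes used in G2 and mitosis. The genes were chosen by cell cycle symbols, so such motifs were likely in them whatever their difference. Promoters of cell cycle genes outside the table were not compared, so the matches say nothing about the difference between the genotypes. Each motif is given below beside its share of all promoters. The share of promoters that carry both was not computed, so no count of both is given. The first motif is the CCAAT box, bound by the factor NF-Y. The second motif is the cell cycle genes homology region (CHR), TTTGAA, to which the DREAM and MuvB complexes bind. Promoter windows from RefSeq (GRCm38.p6), from 250 bases before to 50 bases after the annotated start, matched 13 of the 15 genes by symbol. Where a gene had several windows, the one whose start lies nearest to that of the gene in GENCODE M21 was taken. *Ccnd2* and *Kif21b* had no entry. Both strands were searched for these letters. The 120 bases before the start are given for 8 of the lower genes, 5′ to 3′ on the strand of the gene, with CCAAT and TTTGAA in capitals (ATTGG or TTCAAA where the motif lies on the opposite strand).
Plk1, chr7:122159315-122159434, plus strand: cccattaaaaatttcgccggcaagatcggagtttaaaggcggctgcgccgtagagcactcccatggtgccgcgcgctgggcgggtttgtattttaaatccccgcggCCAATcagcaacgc
Aurka, chr2:172370571-172370690, minus strand: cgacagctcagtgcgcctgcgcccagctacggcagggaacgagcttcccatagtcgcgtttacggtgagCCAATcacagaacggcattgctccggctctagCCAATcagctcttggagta
Bub1, chr2:127831860-127831979, minus strand: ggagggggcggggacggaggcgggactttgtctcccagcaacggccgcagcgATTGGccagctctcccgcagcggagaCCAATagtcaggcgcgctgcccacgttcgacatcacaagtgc
Hmmr, chr11:40733438-40733557, minus strand: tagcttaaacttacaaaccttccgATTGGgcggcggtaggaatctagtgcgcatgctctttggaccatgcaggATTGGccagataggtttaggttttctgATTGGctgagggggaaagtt
Kif11, chr19:37376262-37376381, plus strand: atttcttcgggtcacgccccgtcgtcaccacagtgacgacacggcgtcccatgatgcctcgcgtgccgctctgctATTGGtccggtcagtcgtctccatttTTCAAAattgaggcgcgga
Ect2, chr3:27153879-27153998, minus strand: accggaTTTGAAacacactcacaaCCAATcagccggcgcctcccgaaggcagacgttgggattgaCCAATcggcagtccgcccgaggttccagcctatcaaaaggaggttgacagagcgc
Mki67, chr7:135716380-135716499, minus strand: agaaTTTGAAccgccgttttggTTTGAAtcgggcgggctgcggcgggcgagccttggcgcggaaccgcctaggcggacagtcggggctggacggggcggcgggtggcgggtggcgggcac
Mcm5, chr8:75109389-75109508, plus strand: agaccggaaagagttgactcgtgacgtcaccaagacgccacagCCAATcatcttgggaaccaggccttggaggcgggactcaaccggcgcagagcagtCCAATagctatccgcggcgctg

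All 10 lower cell cycle genes with a promoter window held at least 1 CCAAT, and 8 of the 10 held at least 2. Of all 32851 windows in the RefSeq table, 37.4% held at least 1 and 11.7% at least 2. In *Plk1* the CCAAT began 14 bases before the start, and in *Aurka* the boxes began 51 and 19 bases before it. *Hmmr* held 5 boxes, all on the opposite strand. TTTGAA was found in 8 of the 10 windows, in all but those of *Bub1* and *Mcm5*, and in 17.9% of all windows. In *Mki67* and *Kif11* it lay before the start, in *Ect2* on either side of it, and in the other 5 genes just after it. These 5 matches are shown with their neighbouring bases, TTTGAA in capitals.
Plk1, chr7:122159458-122159477, plus strand: cgccgcgTTTGAAttcgggg
Aurka, chr2:172370526-172370545, minus strand: gagaaccTTTGAAttgtaac
Cdca3, chr6:124830199-124830218, plus strand: agggaagTTTGAAactccgg
Cenpf, chr1:189688067-189688086, minus strand: agTTTGAAtcgctcgtgctg
Hmmr, chr11:40733417-40733436, minus strand: aggtaaaTTTGAAttcaggc

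The motif TTTNNCGC, which stands for the E2F sites of S phase genes, was found in the window of *Mcm5* alone, in 2 overlapping copies on opposite strands, and in 5.17% of all windows. None of these motifs was found in the windows of *Cdk12*, *Cdkn1a* and *Kif9*, of which *Kif9* was lower and the others were higher. A match describes letters in a window and is no evidence of binding, and the windows were not matched for base composition.

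**Figure D2:**
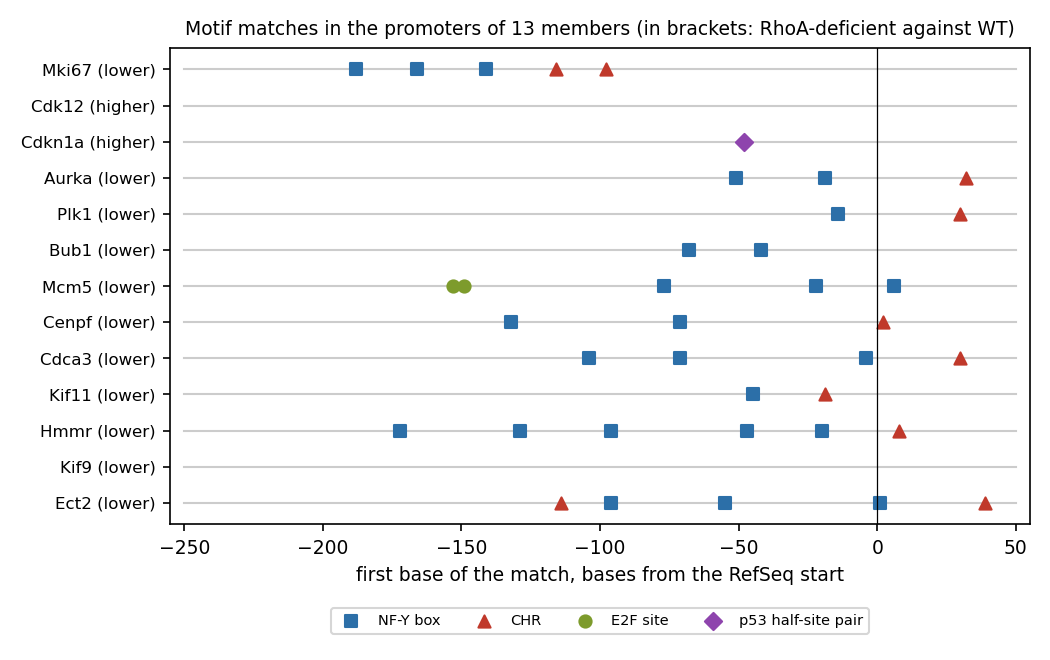
Position of motif matches in the promoter windows of 13 members, in bases from the RefSeq start (vertical line), with squares for the NF-Y box, triangles for the CHR, circles for the E2F motif and a diamond for the p53 half-site pair. Each grey line is 1 window of 250 bases before and 50 after the start, and the lines of *Cdk12* and *Kif9* are empty.

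*Mki67* encodes Ki-67, the protein that coats mitotic chromosomes and marks cycling cells in histology. The gene lies on GRCm38 at chr7:135689784-135716361 on the minus strand. WT cells had 8.38 FPKM and RhoA-deficient cells 5.09 FPKM, 1.65-fold lower. The difference of -0.62 was the smallest among the 13 lower genes, and its rank by size was 357 of the 364 lower genes of the table. The best known marker of cycling cells thus differed by less than the mitotic genes described next, although without a spread the genes cannot be ordered with confidence.

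Cyclins and CDKs were represented by 1 gene each. *Ccnd2* (chr6:127125162-127152193, minus strand) encodes cyclin D2, which activates CDK4 and CDK6 in G1. It stood at 45.1 FPKM in WT and 11.6 FPKM in RhoA-deficient AT2 cells, 3.90-fold lower, with a difference of -1.88. This was the largest difference among the 15 genes and rank 16 of the 364 lower genes. In WT, *Ccnd2* had the highest level of the 13 lower genes, whereas in RhoA-deficient cells *Mcm5* did. Exons of *Ccnd2* share 7.86% of their bases with annotated genes on the opposite strand. The library kit keeps the strand, but whether the FPKM estimates used it is not given in the sources used here. The locus given for *Ccnd2* in the table extends beyond the gene. *Cdk12* (chr11:98203059-98278504, plus strand) was 1.77-fold higher, with 17.9 FPKM in WT and 31.6 FPKM in RhoA-deficient cells. Its difference was 0.79, and 0.14 with the median difference of all 812 genes subtracted.

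*Cdkn1a* (chr17:29090976-29100727, plus strand) encodes p21, which inhibits cyclin-CDK complexes and is induced by p53. WT cells had 516.5 FPKM and RhoA-deficient cells 825.8 FPKM, 1.60-fold higher, with a difference of 0.68. Among the 15 genes it had the highest level, and in each group its FPKM exceeded the sum of the 11 lower cell cycle genes. Its rank by size of the difference was 389 of the 448 higher genes. With the median difference of all 812 genes subtracted, that of *Cdkn1a* was 0.03, so its higher value is close to that of the typical listed gene. The median of genes that were all listed for a difference is no neutral reference. Exons of *Cdkn1a* share 7.68% of their bases with a gene on the opposite strand.

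The promoter of *Cdkn1a* is shown because p21 is the classical target of p53. The 2 CATG cores in capitals, with 6 bases between them, have the spacing of the paired half-sites to which p53 binds.
Cdkn1a, chr17:29090859-29090978, plus strand: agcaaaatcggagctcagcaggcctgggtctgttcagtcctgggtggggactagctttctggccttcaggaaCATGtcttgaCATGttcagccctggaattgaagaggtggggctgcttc
This pair of cores, a palindrome, was searched in the other windows after the sequence had been seen. It was found in 0.712% of all windows and in none of the windows of the 10 lower genes. The start of this window is the upstream one of 2 *Cdkn1a* starts in the table.

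The 3 mitotic kinases were lower by similar factors. *Aurka* (chr2:172356190-172370535, minus strand) encodes Aurora A, which matures the centrosomes and builds the spindle. It had 11.0 FPKM in WT and 5.42 FPKM in RhoA-deficient cells, 2.04-fold lower. *Plk1* (chr7:122159439-122169873, plus strand) encodes Polo-like kinase 1, which acts from mitotic entry to cytokinesis. It had 14.1 and 5.87 FPKM, 2.41-fold lower, and 7.09% of its exonic bases overlap a gene on the opposite strand. *Bub1* (chr2:127801122-127831865, minus strand) encodes a kinase of the spindle checkpoint. It had 8.75 and 4.34 FPKM, 2.01-fold lower.

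The members of chromosome attachment and of mitotic entry, 1 gene each, were lower. *Cenpf* (chr1:189640606-189688086, minus strand), a large protein of the outer kinetochore, had the lowest level of the 15 genes, 3.20 FPKM in WT and 1.05 FPKM in RhoA-deficient cells. Its plain ratio was 3.03-fold, and its difference of -1.03 in log2(FPKM + 1) understates this ratio because 1 is added to each value. *Cdca3* (chr6:124829547-124833701, plus strand), an F-box-like protein that promotes the destruction of the CDK1 inhibitor WEE1, had 21.6 and 9.02 FPKM, 2.39-fold lower.

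Of the genes chosen by symbol, *Kif11* and *Hmmr* act at the spindle and *Ect2* in cytokinesis, and all 3 were lower. *Kif11* (chr19:37376403-37421859, plus strand) encodes Eg5, the motor that pushes the spindle poles apart. WT cells had 6.52 FPKM and RhoA-deficient cells 3.64 FPKM, 1.79-fold lower. *Hmmr* (chr11:40701395-40733422, minus strand), a hyaluronan receptor that also binds spindle microtubules, had 8.48 and 4.01 FPKM, 2.12-fold lower. *Ect2* (chr3:27097222-27153878, minus strand), the exchange factor for RhoA in cytokinesis, had 20.8 and 8.72 FPKM, 2.38-fold lower, with a difference of -1.16. Over the 8 genes of mitosis and cytokinesis, *Aurka*, *Plk1*, *Bub1*, *Cenpf*, *Cdca3*, *Kif11*, *Hmmr* and *Ect2*, the ratio of RhoA-deficient to WT lay between 0.33 and 0.56, with a median of 0.45.

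Replication was represented by *Mcm5* (chr8:75109569-75128439, plus strand), a subunit of the helicase that opens DNA at origins. It had 38.8 FPKM in WT and 23.2 FPKM in RhoA-deficient cells, 1.67-fold lower, which was a smaller ratio than that of each of the 8 mitotic genes. The helicase is a ring of several MCM proteins, and the genes of the others were not analysed here. A list of 55 further genes of S phase and replication, such as *Pcna*, *Tyms* and the *Gins* genes, had no member among the 812 genes. The share of all annotated genes that the table lists was not computed here. This count is therefore no result about replication genes.

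The kinesins with other tasks were lower too. *Kif9* (chr9:110476958-110525179, plus strand) had 7.33 FPKM in WT and 1.94 FPKM in RhoA-deficient cells, 3.77-fold lower, and its difference of -1.50 came next to that of *Ccnd2*. *Kif21b* (chr1:136131389-136177998, plus strand) had 4.38 and 2.09 FPKM, 2.10-fold lower.

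**Figure D3:**
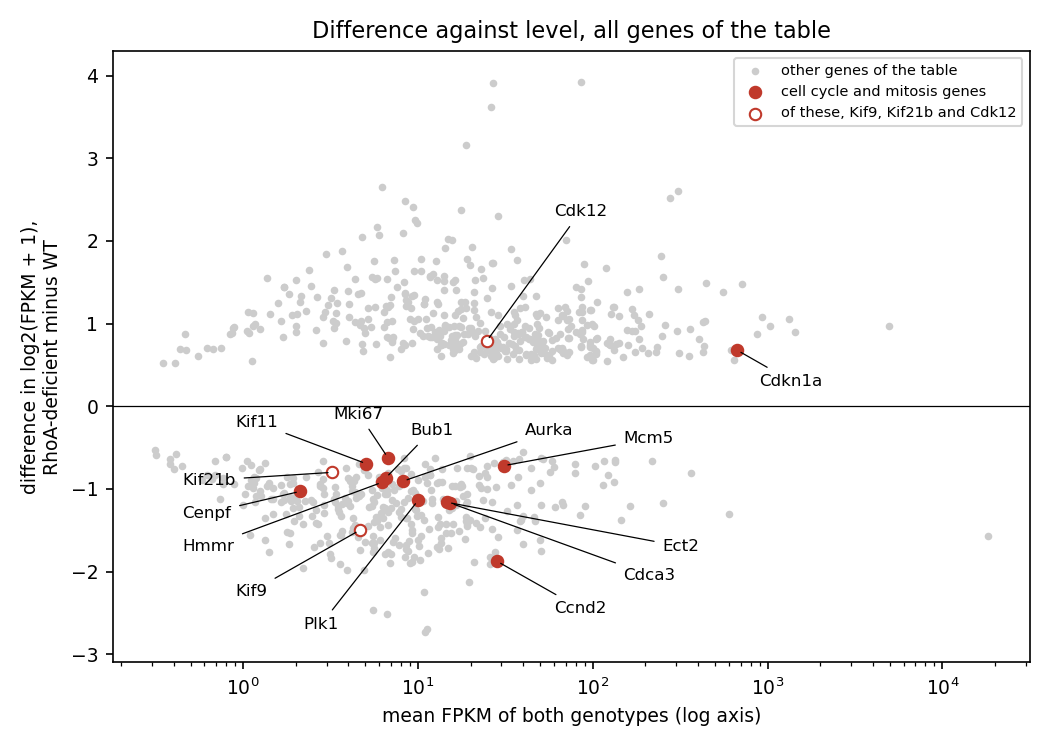
Difference in log2(FPKM + 1), RhoA-deficient minus WT, against the mean FPKM of both genotypes on a log axis, with 1 point per gene, red for the 15 cell cycle and mitosis genes (open for *Kif9*, *Kif21b* and *Cdk12*) and grey for the other genes of the table. Below the zero line 13 red points lie among the grey ones, *Cdkn1a* stands far to the right above it, and the empty band around zero reflects that the table lists called genes only.

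Genes of mitosis and cytokinesis outside the symbol pattern were looked up from a list of 77, of which 6 were in the table. Here 5 were lower and 1 was higher, with a median difference of -0.95. *Birc5*, which encodes the survivin subunit of the chromosomal passenger complex, had 29.9 FPKM in WT and 14.9 FPKM in RhoA-deficient cells. *Ube2c*, the ubiquitin-conjugating enzyme of the anaphase-promoting complex, had 45.2 and 22.9 FPKM. *Pbk*, a mitotic kinase, had 23.3 and 9.56 FPKM, *Iqgap3* had 7.67 and 3.28 FPKM, and *Ckap2l*, a spindle protein, had 5.64 and 2.59 FPKM. The ratios of these 5 genes, from 0.41 to 0.51, lay within the range of the 8 mitotic genes above. The exception was *Psrc1*, a microtubule-binding protein of the spindle, which was 3.35-fold higher with 5.36 FPKM in WT and 17.9 FPKM in RhoA-deficient cells.

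Growth arrest genes and genes of RhoA signaling went both ways. From a list of 37 genes of growth arrest and the p53 response, 3 were in the table. *Ccng2*, a cyclin G of arrested cells, was higher with 45.8 and 84.6 FPKM, and *Sesn2*, a stress-induced inhibitor of mTORC1 signaling, was 1.77-fold higher. *Gas1*, a growth arrest gene, was lower with 2.65 and 0.763 FPKM. Other p53 targets of that list, such as *Mdm2*, were not analysed here. Of 24 effectors of RhoA and genes of the contractile ring, 2 were in the table. The formin *Diaph1*, a RhoA effector that polymerizes actin, was 1.80-fold higher with 33.5 FPKM in WT and 60.3 FPKM in RhoA-deficient cells. The septin gene *Sept6*, which the table gives in the form of a date and which was matched by its gene identifier, was 2.71-fold lower with 9.26 and 3.41 FPKM. Of 21 growth factor receptor and early growth response genes, 6 were in the table, 5 of them higher, although with the median difference of all genes subtracted 2 of the 6 were lower. *Fos* had 22.3 and 57.7 FPKM, *Met*, the receptor of hepatocyte growth factor, had 40.4 and 66.3 FPKM, and *Mycl* was the lower one with 4.07 and 1.12 FPKM.

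Many markers of other cell types were lower along with the cell cycle genes. Over 9 other cell types 28 of 90 markers were in the table, of which 24 were lower and 4 were higher, namely *Ager*, *Clic5*, *Cd14* and *S100a9*. The share of all annotated genes that the table lists was not computed. For every gene list given here, the number of its genes found in the table is therefore no result, and only their direction and level are described. Of 16 lymphocyte markers 8 were in the table, and all 8 were lower, with a median difference of -1.57 and a summed level of 142.6 FPKM in WT and 40.0 FPKM in RhoA-deficient cells. Among them, *Ptprc*, which encodes CD45, had 21.5 and 7.41 FPKM, although the isolation used an antibody to CD45 to remove leukocytes. Their ratios of RhoA-deficient to WT lay between 0.11 and 0.37. Of 10 ciliated cell markers 7 were in the table, all 7 lower, with a summed level of 140.4 and 55.5 FPKM and a median difference of -1.39. *Foxj1*, the regulator of motile cilia, had 28.3 and 9.91 FPKM, and its ratio of 0.35 stands beside that of 0.27 for *Kif9*. No marker in the table was at 0 in either group. The part that other cell types have in the values of the cell cycle genes was not tested, and fewer cells of a type and less RNA per cell cannot be told apart in such bulk samples.

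Of 15 AT2 markers, the labelled cell type, 14 were in the table and all 14 were higher in RhoA-deficient cells, with a summed level of 6061 FPKM in WT and 12728 FPKM in RhoA-deficient cells, opposite to the mitotic genes. Their levels were uneven, and in WT *Slc34a2* had 3.00 FPKM and *Etv5* 2.45 FPKM. Among the remaining marker lists, 4 of 10 AT1 genes were in the table. Of these AT1 genes 2 were higher and 2 lower, or 1 higher with the median difference of all genes subtracted. Of 6 club cell genes 1 was in the table, *Scgb1a1*, the secretory protein of club cells. It was 2.96-fold lower, with 27285 FPKM in WT and 9204 FPKM in RhoA-deficient cells, and its WT value was the highest of the table and exceeded the summed level of the 14 AT2 markers. Of 10 fibroblast and smooth muscle genes 3 were in the table, all lower, and of 8 endothelial genes 1 was in the table, also lower. Of 16 macrophage genes 3 were in the table, 2 lower and 1 higher. Of 9 granulocyte genes 1 was in the table, and it was higher. None of 5 erythroid genes was in the table. *Rhoa* itself is outside the table, so the deletion was not checked here.

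**Figure D4:**
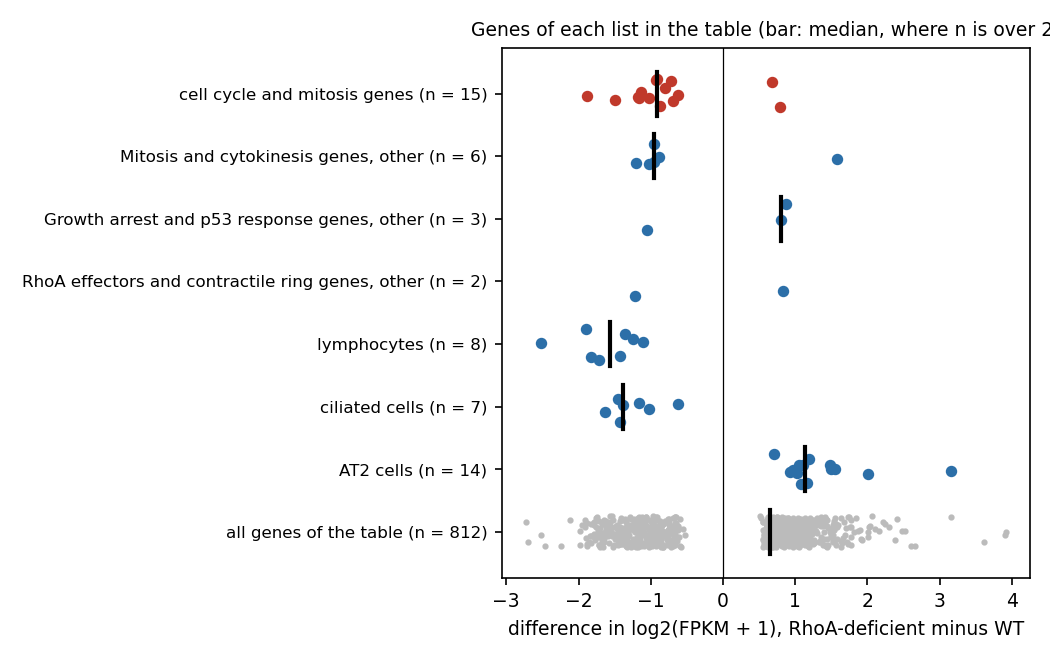
Difference in log2(FPKM + 1), RhoA-deficient minus WT, of each gene in the table by gene list, with 1 point per gene, vertical jitter for display, and a bar at the median of lists with more than 2 genes. The cell cycle and mitosis genes, the other mitosis genes, the lymphocyte markers and the ciliated cell markers have medians below 0, and the AT2 markers lie wholly above it.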

How the data were processed

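AT2 cells were isolated with dispase, and the trachea and airways were removed from the lung. Cells that bound antibodies to CD45, Ter119, Sca-1 and the Fc receptors CD16/32 were then removed. Cells that adhered to dishes coated with mouse IgG were also left out. Libraries were enriched for mRNA. The authors aligned the reads with STAR 2.7.2b, annotated them with Partek and compared the genotypes with Cufflinks. The labels name the mm9 build, whereas the paper's methods name GRCm38. Of the 812 deposited loci, 651 equal the span of the gene in GENCODE M21, so GRCm38 was used. The authors deposited FPKM, scaled by transcript length and library size, as 1 average per genotype. The depth of each sample is unknown, so precision could not be given. Columns with the authors' fold change, test statistic, p-value and q-value were not used.

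The difference was computed as log2(FPKM + 1), RhoA-deficient minus WT, without a filter on low values, and limma, planned for values per sample, could not be run. All members were named, and other genes came from 15 lists, 10 of them of cell type markers. The members and lists were chosen with earlier results of these data known. *Cip2a*, *Myb*, *Rgcc* and *Pcna-ps2* were chosen after their values were seen. Exon overlaps were taken from GENCODE M21 and promoters from RefSeq. Alternatives were other pseudocounts, filters, folds, member sets and a centring on the median. Differences and the motif search were tested on simulated data. The software was Matplotlib 3.10.9, NumPy 2.4.6, pandas 2.3.3 and Python 3.11.15.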

Additional observations from a re-analysis of the deposited data

How the results depend on the processing

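Of the 10 alternatives, 9 were planned and 1, no pseudocount, was chosen after seeing the data. Differences of single genes were recomputed under 6 of them (3 pseudocount settings, 2 filters and the centring), and none of those computed reversed. *Cenpf*, *Kif9* and *Kif21b* have no value at a mean FPKM of at least 5. Pseudocounts and filters cannot turn a sign by construction. The number of genes at least 2-fold lower, 6 with a pseudocount of 1, was 10 with a pseudocount of 0.01 and with none (37.3% of all 812 genes under either), 13 with the median difference of all genes subtracted (44.8%), 13 at a fold of 1.5 (44.5%) and 1 at a fold of 3 (7.27%). At least 1.5-fold higher were 2 genes, against 53.4% of all. With the median subtracted, the median difference of the 15 genes was -1.56. Without *Kif9*, *Kif21b* and *Cdk12*, or with the genes whose exons overlap no other gene, 1 gene was higher in place of 2. The difference of *Cenpf* was -1.59 with a pseudocount of 0.01. With the filter at a mean FPKM of at least 5, 10 of the 15 genes were lower and 2 were higher. The rest, named above, were left out by the filter. Of all genes, 225 were lower with this filter and 364 without it. Leaving out each replicate was not run because the table holds no values per sample. No paired analysis was possible because 1 average per genotype is given. The depth of each sample is unknown, so what it limits could not be ranked between genes.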

Other observations

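Some genes linked to the cell cycle are outside the lists and were chosen after their values were seen. *Cip2a*, which encodes an inhibitor of the phosphatase PP2A and is used by dividing cells, was lower, with 12.3 FPKM in WT and 5.16 FPKM in RhoA-deficient AT2 cells. *Myb*, a transcription factor of immature blood cells and of cells that form multiple cilia, was lower with 4.26 and 0.972 FPKM. *Rgcc*, a regulator of the cell cycle that responds to complement, was higher with 46.5 and 125.7 FPKM. *Pcna-ps2*, annotated as a processed pseudogene of the replication clamp gene *Pcna*, was higher with 25.9 and 48.6 FPKM, while *Pcna* is not among the 812 genes. Reads of a processed pseudogene and its parent can be exchanged in counting, so this value is uncertain.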
